A study of Mus musculus with 6 samples.

Results

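The genes examined here make the enzymes of V(D)J recombination and of the DNA repair pathway that completes it. They were chosen by name: Rag1, Rag2, Dntt, Prkdc, Xrcc4, Xrcc5, Xrcc6, Lig4, Dclre1c and Nhej1. A probe set is a group of short array probes summarised as 1 value, and a probe set was counted as a member where the array annotation gave it exactly 1 gene symbol from these 10. This rule found 14 probe sets among the 45037 in the data, covering 9 of the 10 genes, and Dclre1c, the gene of the hairpin-opening nuclease Artemis, had no expression value analysed here. The samples were whole bone marrow of SCID/Bg mice, 3 given NOX-A12 and 3 untreated, each hybridised to its own Affymetrix Mouse Genome 430 2.0 array. NOX-A12 is a mirror-image RNA aptamer that captures the chemokine CXCL12, which holds blood-forming and lymphoid precursor cells in the marrow. The sources used here give no dose, timing, age or sex.

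In developing lymphocytes, the RAG1 and RAG2 proteins together cut DNA beside the V, D and J segments of the antigen receptor genes. Terminal transferase, encoded by Dntt, adds untemplated nucleotides to the open ends, and the non-homologous end-joining proteins, which nearly all cells use to mend double-strand breaks, then join them. Rag1, Rag2 and Dntt are largely restricted to lymphoid precursors, in the marrow mainly those of the B lineage, whereas the end-joining genes are broadly expressed.

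By strain, every animal in both groups carried the scid allele of Prkdc, a premature stop codon near the end of the coding sequence of the catalytic subunit of DNA-dependent protein kinase. Hairpin-sealed coding ends are then not opened properly and lymphocyte development halts at the stage at which RAG is made. All 6 also carried the beige allele, which lies in Lyst and impairs natural killer cells. There was no strain with intact Prkdc, so these data hold no comparison of the scid allele with its normal form, and the only contrast is NOX-A12 against untreated.

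Early B-lineage genes were mostly above the median level of all probe sets, and later lymphocyte genes were mixed. Of 21 early B-lineage genes 2 lay below that median, Pax5 and Dtx1, against 7 of 15 later B-cell genes and 10 of 19 T-lineage genes. The early B-lineage list also holds genes that many marrow cells express, such as Cd24a, so these counts are not like for like. Each gene was read at its brightest probe set, while the median covers all probe sets. The counts alone therefore do not show that a gene is expressed. Igll1 and Vpreb1, which encode the surrogate light chain of the pre-B-cell receptor, averaged intensities of 781 ± 127 and 1259 ± 257 in NOX-A12 marrow, against 1165 ± 188 and 1752 ± 171 in untreated marrow (SD, n = 3 each). Ms4a1, the gene of the mature B-cell antigen CD20, averaged 20.8 in NOX-A12 and 21.8 in untreated marrow, and the T-cell receptor complex gene Cd3e averaged 8.19 in NOX-A12 and 9.63 in untreated marrow, all under the median of 45.1 over all values. Others of these lists were bright: Ighm, the IgM heavy chain gene, averaged 854 in NOX-A12 and 918 in untreated marrow, and Cd3d, of the same receptor complex as Cd3e, 1813 in NOX-A12 and 1319 in untreated marrow. One array stood apart. Untreated mouse 3 correlated with the other arrays at r of 0.982 to 0.985 across probe sets, the other 5 at 0.991 to 0.994 with each other, and 851 of its probe sets lay more than 2-fold from the median of the rest, against 44 to 67 on each other array.

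The promoters of the lymphoid-restricted genes and of an end-joining gene are shown because their CpG counts differ and because Rag1 and Rag2 varied together below. Each is 1 window of 300 bases, from 250 bases before the annotated start to 50 after it, taken from RefSeq on GRCm38.p6 and printed 5′ to 3′ on the gene's strand. Capitals mark CpG dinucleotides. Rag1 is at chr2:101649483-101649782 on the minus strand and Rag2, its direct neighbour among protein-coding genes, at chr2:101624462-101624761 on the plus strand. Dntt is at chr19:41029025-41029324 and Xrcc5, which encodes the Ku80 protein, at chr1:72307171-72307470, both on the plus strand.
Rag1: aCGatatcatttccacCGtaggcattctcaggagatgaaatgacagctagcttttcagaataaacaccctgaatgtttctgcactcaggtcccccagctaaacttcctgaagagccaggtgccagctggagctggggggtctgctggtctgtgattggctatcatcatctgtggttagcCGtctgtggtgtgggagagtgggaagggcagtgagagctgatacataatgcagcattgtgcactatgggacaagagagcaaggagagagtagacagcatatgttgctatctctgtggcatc
Rag2: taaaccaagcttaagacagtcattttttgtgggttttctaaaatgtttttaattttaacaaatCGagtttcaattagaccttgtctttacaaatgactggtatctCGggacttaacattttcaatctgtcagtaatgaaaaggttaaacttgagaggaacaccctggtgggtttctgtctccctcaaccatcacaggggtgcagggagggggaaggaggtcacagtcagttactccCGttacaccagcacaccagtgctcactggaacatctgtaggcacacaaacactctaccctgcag
Dntt: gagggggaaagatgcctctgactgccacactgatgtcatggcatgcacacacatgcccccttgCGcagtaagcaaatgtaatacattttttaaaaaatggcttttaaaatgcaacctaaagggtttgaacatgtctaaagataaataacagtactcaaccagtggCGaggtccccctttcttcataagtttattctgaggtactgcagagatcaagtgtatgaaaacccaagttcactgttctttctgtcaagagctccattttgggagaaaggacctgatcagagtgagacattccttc
Xrcc5: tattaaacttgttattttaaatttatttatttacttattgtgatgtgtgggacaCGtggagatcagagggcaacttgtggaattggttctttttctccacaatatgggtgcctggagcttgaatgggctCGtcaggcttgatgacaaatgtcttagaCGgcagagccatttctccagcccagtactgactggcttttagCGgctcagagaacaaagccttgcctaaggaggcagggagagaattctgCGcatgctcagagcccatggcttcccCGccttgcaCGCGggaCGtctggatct

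The 3 lymphoid promoters were poor in CpG. The Rag1 and Rag2 windows held 3 CpG each and the Dntt window 2, against a median of 7 and quartiles of 3 and 20 over 32851 windows of the same length. The RefSeq table had windows for 9 of the 10 genes. Among the end-joining genes, Xrcc5 had 9 CpG, Nhej1 10, Dclre1c 12, Xrcc6 30 and Xrcc4 31, and the 2 annotated starts of Lig4 had 29 and 30. The lymphoid windows therefore all lay below the end-joining windows. With E-boxes spelled CAGNTG and read on both strands, Rag1 had 3 matches, Rag2 had 1 and Dntt had 0, and 51.4% of all windows held at least 1. Among the end-joining genes, Dclre1c had 2, the windows of Lig4 had 1 and 2, and Xrcc5, Xrcc6, Xrcc4 and Nhej1 had 0. E-boxes were thus not particular to the lymphoid windows. Cores spelled CCCNNGGG for EBF1, TGTTTNC for FOXO factors and TATAAA for the TATA box had 0 matches in the windows of all 9 genes, and were present in 13.7%, 20.5% and 13.6% of all windows. Only E-boxes matched, so no match overlapped one of another kind. These matches describe letters in a window only.

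**Figure D1:**
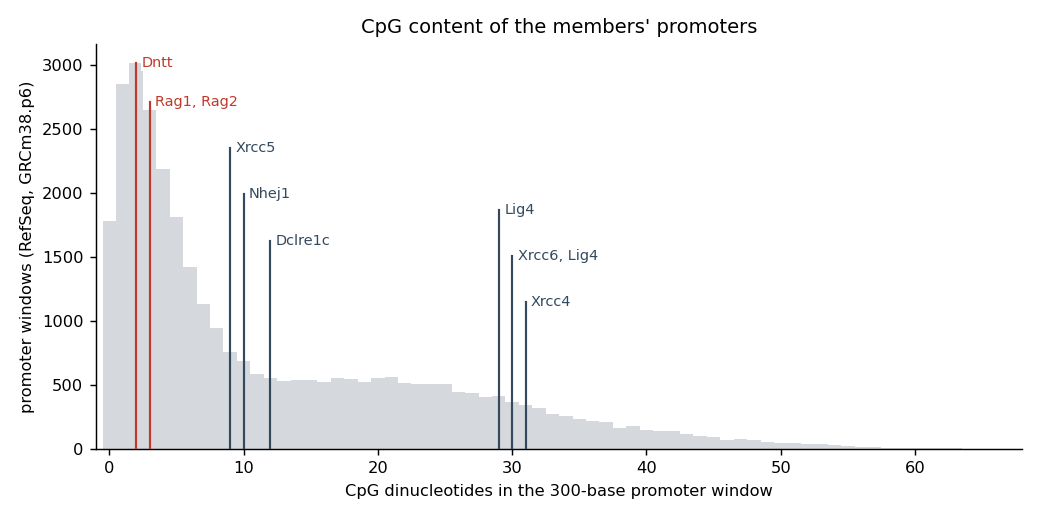
CpG dinucleotides per 300-base promoter window (x axis) against the number of RefSeq windows on GRCm38.p6 (grey bars, y axis), with members marked by vertical lines whose height only spaces the labels. Rag1, Rag2 and Dntt (red) have 3, 3 and 2 CpG, and the end-joining genes (dark) have 9 to 31.

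Expression was then compared between groups. Differences are NOX-A12 minus untreated on the scale of log2(intensity + 16), which understates differences of dim probe sets, and each was tested with limma over the whole array with Benjamini-Hochberg adjustment and a threshold of 0.05. None of the 14 member probe sets passed, with limma adjusted p-values from 0.967 to 0.997, and the share passing among all 45037 probe sets was also 0%. At an unadjusted limma p under 0.05, 0 members were higher, where 1.88% of all probe sets were, and 2 were lower, where 3.10% of all probe sets were. The 2 were Xrcc5 and a Dntt probe set. The groups did not overlap for 1 of 14 members, Xrcc5, against 9.85% of all probe sets. Which members were called changed when single mice were left out. Leaving out NOX-A12 mouse 1, NOX-A12 mouse 2 or untreated mouse 3 left 0 members past an unadjusted 0.05. Leaving out NOX-A12 mouse 3 left the Dntt probe set alone, and leaving out untreated mouse 1 left no lower member and 1 higher one, Rag2. Leaving out untreated mouse 2 left 2 Dntt probe sets, and Xrcc5 missed 0.05 in all 6 cases, with its unadjusted limma p between 0.0504 and 0.116. The Xrcc5 log2 difference itself stayed between -0.24 and -0.19, so it did not hang on any 1 mouse. In whole marrow, fewer cells of a type and less RNA per cell cannot be told apart.

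**Figure D2:**
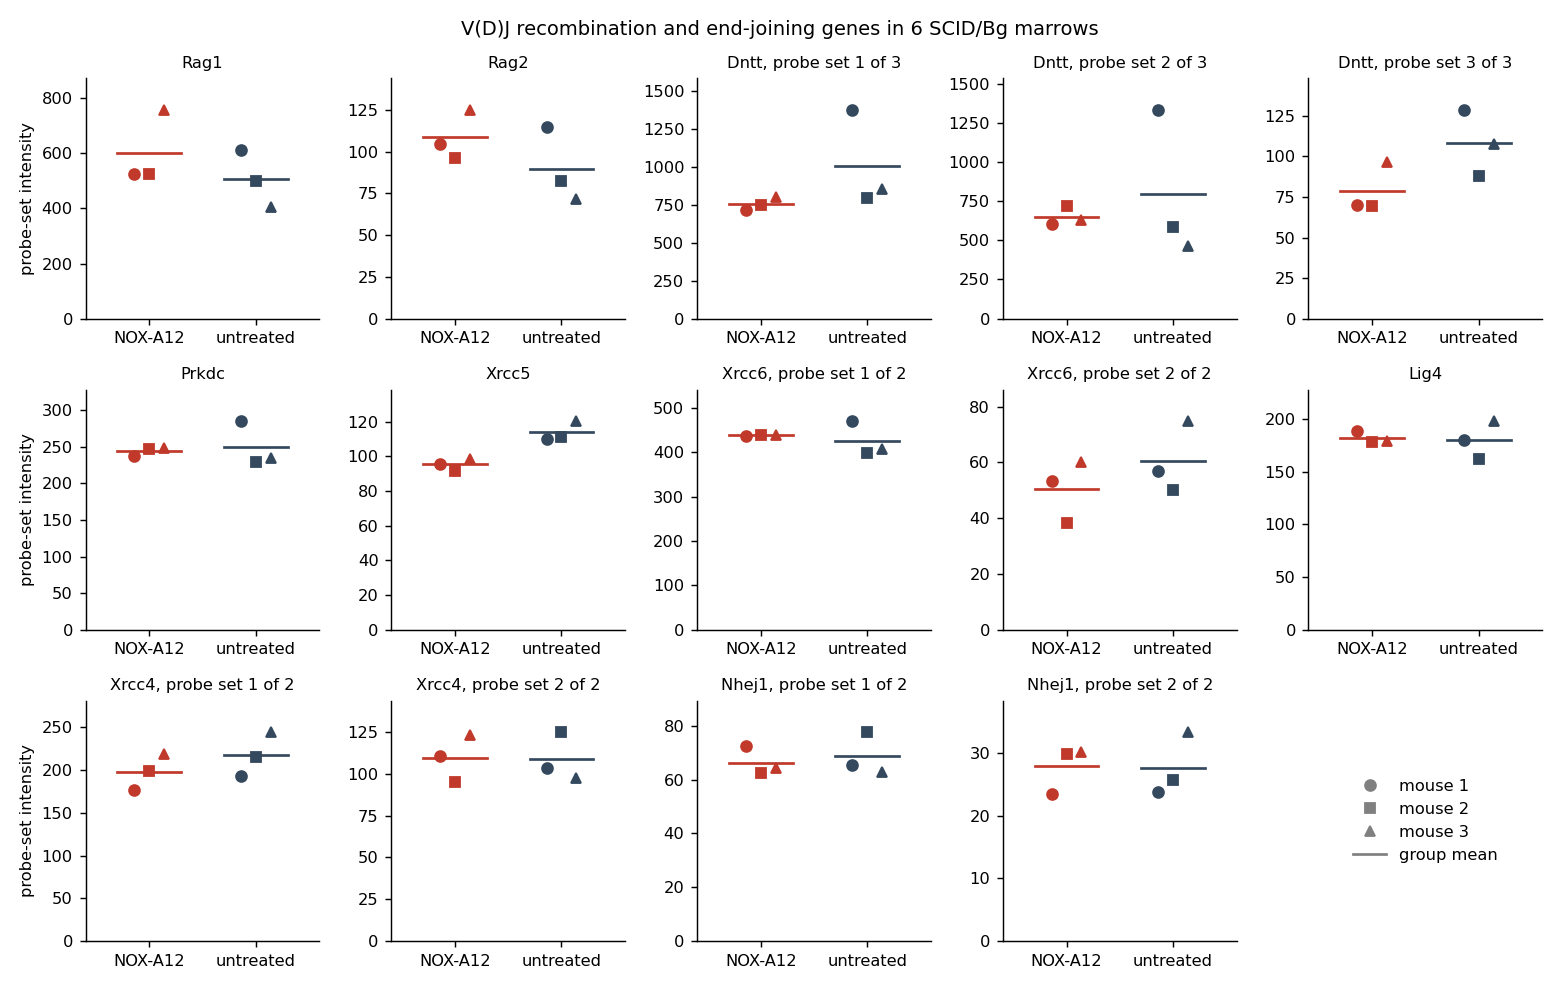
Probe-set intensity (y axes, linear from 0) of each of the 14 member probe sets in NOX-A12 (red, left) and untreated (dark, right) marrow. Points are single mice, with symbols for mouse numbers that name different animals in each group, and lines are means of 3 mice; the groups are separate for Xrcc5 only.

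Rag1 and Rag2, the 2 genes of the recombinase, had higher means in NOX-A12 marrow, with groups that overlapped. Rag1 had intensities of 526, 523 and 758 in NOX-A12 mice 1 to 3, against 613, 500 and 405 in untreated mice 1 to 3. The highest value was in NOX-A12 mouse 3 and the lowest in untreated mouse 3. The log2 difference was 0.24 ± 0.20 (SE), with a 95% interval from -0.22 to 0.70 and a limma adjusted p of 0.967. Leaving out NOX-A12 mouse 3 gave 0.07, leaving out untreated mouse 3 gave 0.10 and leaving out untreated mouse 1 gave 0.39, so its size depended on single animals while its sign did not.

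Rag2 had 104, 96.2 and 125 in NOX-A12 mice, against 115, 82.7 and 71.3 in untreated mice. The 6 marrows ranked in the same order as for Rag1, and untreated mouse 1 again lay above NOX-A12 mice 1 and 2. The log2 difference was 0.25 ± 0.17, with an interval from -0.14 to 0.65 and a limma adjusted p of 0.967. Leaving out untreated mouse 3 gave 0.13, leaving out NOX-A12 mouse 3 gave 0.16 and leaving out untreated mouse 1 gave 0.42. As folds, the intervals ran from 0.859 to 1.63 for Rag1 and from 0.906 to 1.57 for Rag2.

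Dntt, whose terminal transferase diversifies the joins, had lower means in NOX-A12 marrow at all 3 of its probe sets. At the probe set of highest mean, NOX-A12 mice had 716, 748 and 798, against 1375, 794 and 853 in untreated mice. Untreated mouse 1 stood far above the other 5, and NOX-A12 mouse 3 lay above untreated mouse 2. The log2 difference was -0.37 ± 0.20 (interval -0.84 to 0.11), and -0.13 without untreated mouse 1.

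The second Dntt probe set had 605, 720 and 629 in NOX-A12 mice, against 1333, 586 and 461 in untreated mice. Here the other 2 untreated mice lay below the NOX-A12 range. Its log2 difference was -0.13 ± 0.35, turned to 0.31 without untreated mouse 1, and was -0.44 without untreated mouse 3. The third and dimmest had 70.2, 69.5 and 96.5 in NOX-A12 mice, against 129, 88.0 and 108 in untreated mice, a log2 difference of -0.39 ± 0.16 (limma adjusted p = 0.967) that was -0.27 without untreated mouse 1. Over the 6 arrays the first probe set correlated with the second at r = 0.82 and with the third at r = 0.85, and the second with the third at r = 0.43. The first and second carry the array's suffixes for probes shared with other transcripts or variants, and the third does not.

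Xrcc5 encodes Ku80, which with Ku70, the product of Xrcc6, forms the ring that first binds a broken DNA end. Xrcc5 had 95.8, 91.8 and 98.7 in NOX-A12 mice, against 110, 111 and 120 in untreated mice. All NOX-A12 values lay below all untreated values, and the spread within groups was small, with a residual SD of 0.05 that 94.3% of probe sets above the median level exceeded. The log2 difference was -0.22 ± 0.09 (interval -0.43 to -0.01), an unadjusted limma p of 0.0389 and an adjusted p of 0.967. Leaving out any 1 mouse gave -0.24 to -0.19.

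The brighter Xrcc6 probe set had 438, 440 and 438 in NOX-A12 mice, against 471, 398 and 407 in untreated mice, a log2 difference of 0.05 ± 0.10 (interval -0.18 to 0.28) that was 0.12 without untreated mouse 1. The NOX-A12 mice were nearly identical and lay inside the untreated range. The dimmer Xrcc6 probe set averaged 50.6 ± 11.1 in NOX-A12 mice, against 60.6 ± 12.8 in untreated mice (SD, n = 3 each), with overlap and a log2 difference of -0.20 ± 0.17. The 2 probe sets correlated at r = -0.21 over the 6 arrays. Whether the 2 Ku genes differed in their response was not tested.

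Prkdc, the gene that carries the scid stop codon, was measured in every marrow. It had 238, 247 and 248 in NOX-A12 mice, against 285, 229 and 235 in untreated mice. The 3 NOX-A12 values lay within the untreated range. The log2 difference was -0.02 ± 0.11, with an interval from -0.28 to 0.23, that is, folds from 0.82 to 1.17, and it was 0.07 without untreated mouse 1. These are transcript levels of the mutant allele and say nothing of the truncated protein.

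Values of the ligation genes overlapped between groups at every probe set. Lig4, the DNA ligase that seals the break, had 189, 178 and 179 in NOX-A12 mice, against 180, 162 and 198 in untreated mice, a log2 difference of 0.01 ± 0.10 (interval -0.22 to 0.25). The NOX-A12 values lay inside the untreated range.

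Xrcc4, the scaffold that stabilises Lig4, had 177, 199 and 219 in NOX-A12 mice, against 193, 216 and 245 in untreated mice at its brighter probe set. The groups overlapped, and the log2 difference was -0.12 ± 0.12 (interval -0.41 to 0.16). Its other probe set averaged 109.5 in NOX-A12 and 108.6 in untreated mice, with a log2 difference of 0.01 ± 0.13, and the 2 correlated at r = 0.02.

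Nhej1 encodes XLF, a protein that bridges ends together with Xrcc4. At its brighter probe set it ranged from 62.4 to 72.6 in NOX-A12 and from 63.0 to 77.8 in untreated mice, a log2 difference of -0.04 ± 0.11. The other probe set, the only member below the median level of all probe sets, ranged from 23.6 to 30.3 in NOX-A12 and from 23.9 to 33.4 in untreated mice, with a difference of 0.01 ± 0.12. The 2 correlated at r = -0.65 over the 6 arrays, within these narrow ranges, and this was not tested.

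**Figure D3:**
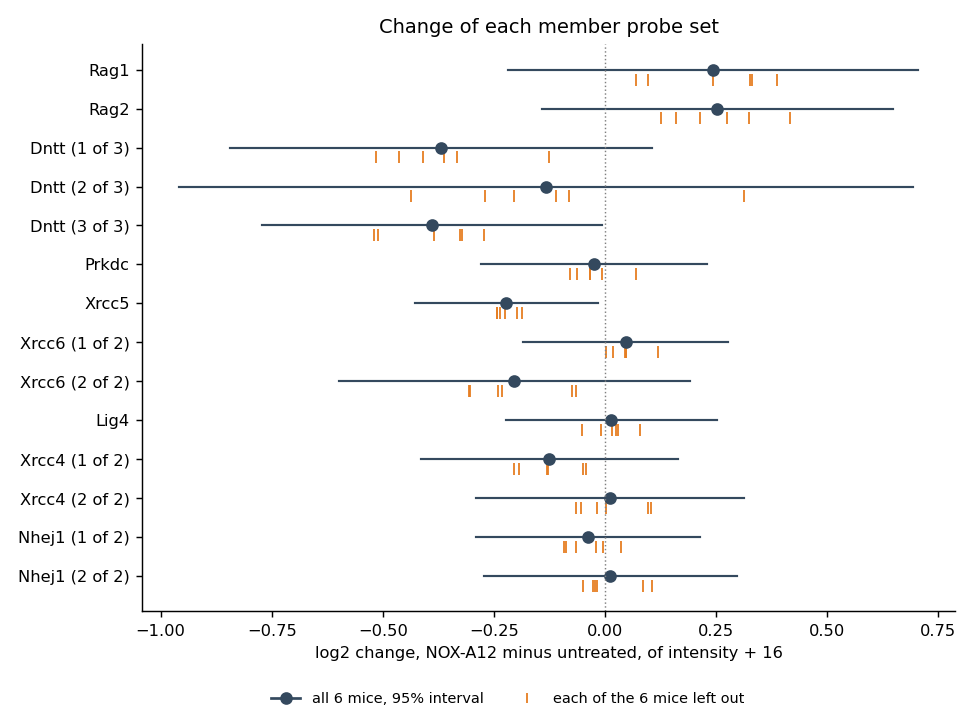
Log2 difference, NOX-A12 minus untreated, of each member probe set (points) with its 95% interval from limma (lines), and the estimates with each of the 6 mice left out (orange ticks). Xrcc5 and the third Dntt probe set have intervals below 0 before adjustment, and the second Dntt probe set spreads most when mice are left out, from -0.44 to 0.31.

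The spread among mice is given as a description. The residual SD within groups was 0.29 for Rag1, 0.24 for Rag2 and 0.23 to 0.56 for the 3 Dntt probe sets, against a median of 0.143 over the 22425 probe sets above the median level. For the first 2 Dntt probe sets the log2 SD was 0.08 and 0.13 in NOX-A12 mice, against 0.42 and 0.79 in untreated mice. For the third it was 0.23 in NOX-A12 and 0.24 in untreated mice. Xrcc5, Xrcc6, Prkdc, Lig4, Xrcc4 and Nhej1 had residual SDs of 0.05 to 0.15 at their brightest probe sets. The highest value over the lowest was 1.87 for Rag1, 1.75 for Rag2 and 1.92, 2.89 and 1.85 for Dntt, against 1.18 to 1.39 for the brightest probe sets of the other 6 genes. The dimmer Xrcc6 probe set was as variable as the lymphoid genes, with a residual SD of 0.24 and a highest over lowest value of 1.95.

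Levels of Rag1, Rag2 and Dntt were related to each other and to the early B-lineage genes Igll1, Vpreb1 and Cd79a, the last encoding a signalling chain of the B-cell receptor, over the 6 marrows. This made 12 relations, each tested by exact permutation with Benjamini-Hochberg adjustment over the 12. Rag1 and Rag2 varied together, with r = 0.94 (exact permutation p = 0.00694, adjusted p = 0.05) and Spearman's rho = 1 (exact permutation p = 0.00278, adjusted p = 0.0333), the last being the smallest p that 6 mice can give. Without NOX-A12 mouse 3 and untreated mouse 3, the 2 mice farthest from the median of Rag1, r was 0.87. After subtracting each group's mean, r was 0.93, given as a description.

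Dntt was set against the same B-lineage genes and had r = 0.85 with Igll1 (exact permutation p = 0.00833, adjusted p = 0.05; rho = 0.83, p = 0.0583), 0.75 with Vpreb1 (exact p = 0.0208, adjusted p = 0.0833; rho = 0.94, p = 0.0167) and 0.68 with Cd79a (exact p = 0.113, adjusted p = 0.338; rho = 0.89, p = 0.0333), none of which was under 0.05 after adjustment. Without NOX-A12 mouse 1 and untreated mouse 1 these 3 values of r were 0.80, 0.92 and 0.95. After subtracting group means, with all 6 mice kept, they were 0.80, 0.56 and 0.41, given as a description. With Rag1 and Rag2, Dntt had r = 0.21 and 0.26 (exact permutation p = 0.583 and 0.651, adjusted p = 0.942 for both, rho = 0.09 for both with p = 0.919). Without NOX-A12 mouse 3 and untreated mouse 3, r of Dntt was 0.92 with Rag1 and 0.62 with Rag2. After subtracting group means, with all 6 mice kept, it was 0.66 and 0.85, given as a description. Whether Dntt was closer to Igll1 than to Rag1 was not tested. At the third Dntt probe set r was 0.94 with Igll1 and 0.96 with Vpreb1 (exact permutation adjusted p = 0.0444 and 0.0417). At the second, r was 0.48 with Igll1, 0.30 with Vpreb1 and 0.17 with Cd79a, and 0.48 with Rag1 and 0.60 with Rag2 (exact permutation adjusted p = 0.942 for each). The relations of Dntt therefore depended on the probe set, and both of these settings were chosen after seeing the data.

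No relation of Rag1 or Rag2 to the B-lineage genes was detected over all 6 mice. Their r lay between -0.37 and 0.08 for the 6 relations with Igll1, Vpreb1 and Cd79a, with rho from -0.37 to -0.09, exact permutation p of at least 0.461 for r and 0.497 for rho, and adjusted p of 0.942 and 0.919. Without NOX-A12 mouse 3 and untreated mouse 3, r was 0.60 to 0.63 for Rag1 and 0.16 to 0.18 for Rag2. After subtracting group means, r of Rag1 was 0.95 with Igll1, 0.80 with Vpreb1 and 0.27 with Cd79a, and r of Rag2 was 0.92, 0.67 and 0.19. Mice with more Igll1 than their group's mean tended to have more Rag1, while the groups sat at different Igll1 levels. These values describe 3 mice per group and were not tested.

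The level of each gene relative to the mean log2 level of Igll1 and Vpreb1 was compared next. For Rag1 this relative level was -0.70, -0.78 and -0.65 in NOX-A12 mice, against -1.39, -1.36 and -1.70 in untreated mice, a difference of 0.77. For Rag2 it was -2.87, -3.04 and -3.11 in NOX-A12 mice, against -3.66, -3.74 and -3.96 in untreated mice, a difference of 0.78. Neither overlapped between groups (exact permutation p = 0.1 for each, two-sided, adjusted p = 0.15 over 3 differences, where 0.1 is the smallest p that 3 against 3 mice allow).

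The Dntt relative level was -0.27, -0.28 and -0.58 in NOX-A12 mice, against -0.24, -0.71 and -0.65 in untreated mice, a difference of 0.16 with overlapping groups (exact permutation p = 0.4, adjusted p = 0.4). Leaving out 1 mouse gave 0.07 (without untreated mouse 2) to 0.30 (without untreated mouse 1), and the second and the third Dntt probe sets gave 0.39 and 0.14. The larger part of the Rag1 and Rag2 differences lay in the genes they were set against, since Rag1 and Rag2 themselves differed by 0.24 and 0.25. The mean log2 level of Igll1 and Vpreb1 itself differed by -0.53, and 56.1% of all probe sets were higher with no overlap when expressed the same way, so the separation of Rag1 and Rag2 is not particular to them. Set against the mean of 19 other early B-lineage genes, a comparison added after seeing the data, the differences were 0.35 for Rag1, 0.36 for Rag2 and -0.26 for Dntt (exact permutation p = 0.2, 0.1 and 0.2), with no overlap for Rag2 only. Since Igll1 and Vpreb1 were known to be lower in NOX-A12 marrow when chosen, their direction is no independent evidence.

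**Figure D4:**
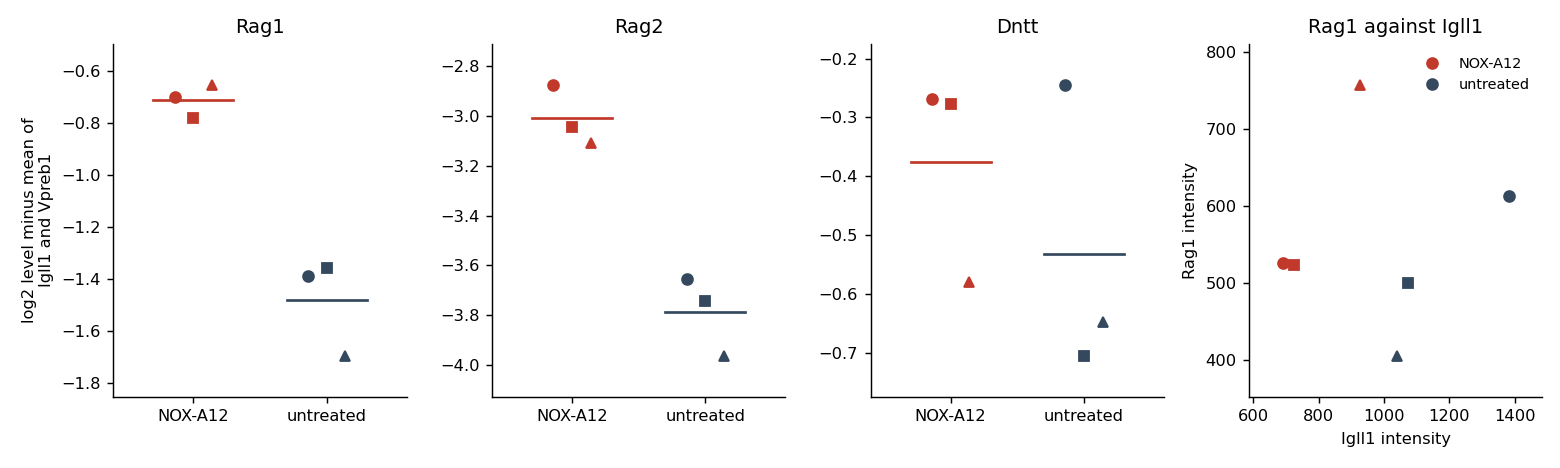
Left 3 panels, log2 level of Rag1, Rag2 and Dntt minus the mean log2 level of Igll1 and Vpreb1 (y axes, not starting at 0) in NOX-A12 (red) and untreated (dark) mice, with group means as lines. The groups separate for Rag1 and Rag2 and overlap for Dntt, and the right panel plots Rag1 against Igll1 intensity for the same 6 mice, where the untreated mice lie further right.

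Genes of most similar pattern were taken among 2431 genes above the median level with an SD of at least 0.25 over the 6 arrays. For Rag1 they were Ttc14 (r = 0.97), Kif20b (0.96), which encodes a mitotic kinesin, and Fbxo27 (0.95), with Rag2 in place 5. For Rag2 they were Dnaja4 (0.96), a co-chaperone gene, Spice1 (0.95) and Fkbp5 (0.94), a glucocorticoid-induced gene, with Rag1 in place 4. For Dntt, at its brightest probe set, they were Pou2af1 (0.98), a transcriptional coactivator gene of B cells, Blnk (0.98), the adaptor of pre-B-cell receptor signalling, and Col8a1 (0.93), a collagen gene. In untreated mouse 1 Dntt was 1375, against 716 to 853 in the other mice. Pou2af1 was 631 in that mouse, against 365 to 420, and Blnk 1001, against 571 to 677. How far r rests on that mouse was not tested. These values of r all describe the same 6 arrays and were not tested.

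Other genes of the same pathway were compared from 3 lists, each gene by its brightest probe set. These lists, like the members, were chosen with earlier results of these data known. Of 16 accessory end-joining genes 13 were measured, of which 6 were higher, 7 lower and 0 passed limma, with a median log2 difference of -0.01. Over all probe sets the median was 0.00, and over the 9 members' brightest probe sets it was -0.02, with 4 higher and 5 lower. The 3 with the smallest unadjusted p were Xrcc1, a scaffold of single-strand break repair (0.19 ± 0.11), the replicative ligase gene Lig1 (-0.16 ± 0.09) and Aptx, which removes stalled ligation intermediates (-0.21 ± 0.12). Groups did not overlap for 2 of the 13, against the 9.85% of all probe sets.

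Of 17 genes that signal DNA breaks, 16 were measured, with 11 higher, 5 lower, 0 past the threshold and a median of 0.02. Atm, the kinase that responds to double-strand breaks including those made by RAG, had 259, 234 and 240 in NOX-A12 mice, against 216, 211 and 204 in untreated mice. All NOX-A12 values lay above all untreated values, a log2 difference of 0.20 ± 0.09 (limma adjusted p = 0.967), and Atm was the only one of the 16 whose groups did not overlap, where 9.85% of all probe sets did not. Mad2l2, a shieldin subunit that limits resection of ends, gave -0.17 ± 0.10, and Nbn, of the complex that senses breaks, 0.18 ± 0.13.

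Of 20 genes that assist or regulate RAG, 19 were measured, with 11 higher, 8 lower, 0 past the threshold and a median of 0.01. Ikzf3, which encodes the lymphoid transcription factor Aiolos, had 95.5, 93.4 and 80.2 in NOX-A12 mice, against 110, 147 and 122.9 in untreated mice, without overlap. Its log2 difference was -0.43 ± 0.12 (limma adjusted p = 0.936). Gfi1b, a repressor of erythroid and megakaryocyte cells that also represses Rag transcription, gave -0.40 ± 0.15, and Skp2, a ubiquitin ligase subunit that drives RAG2 degradation in the cell cycle, gave 0.29 ± 0.14. Groups did not overlap for 3 of the 19, against 9.85% of all probe sets, a difference that was not tested.

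**Figure D5:**
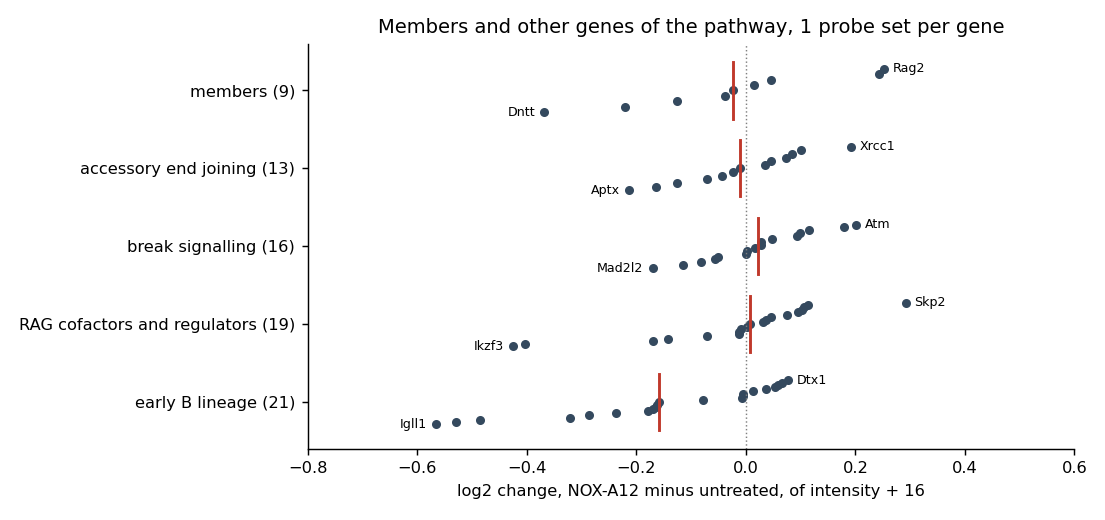
Log2 difference, NOX-A12 minus untreated (x axis), of single genes (points, 1 probe set per gene) in each list, with the number measured in brackets and the list median as a red line. The medians of the members and of the 3 pathway lists lie between -0.02 and 0.02, and that of the early B-lineage list is -0.16.

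Markers of cells that could carry these transcripts were read as whole lists. Of 21 measured early B-lineage genes, 15 were lower and 6 higher in NOX-A12 marrow, 0 passed, and their summed intensity ranged from 22941 to 24449 in NOX-A12 and from 22812 to 26927 in untreated mice. Cd24a, which many marrow cells express, averaged 12127 in NOX-A12 and 12026 in untreated mice and so made up much of that sum. The mean log2 level over the 21 genes, which weights them equally, did not overlap, at 8.63 to 8.75 in NOX-A12 and 8.76 to 8.95 in untreated mice. The 2 ranges nearly meet, and the list holds Igll1 and Vpreb1, known to be lower when chosen. The surrogate light chain genes and Cd79a had the smallest unadjusted p, with log2 differences for Cd79a (-0.53 ± 0.15), Igll1 (-0.57 ± 0.16) and Vpreb1 (-0.49 ± 0.16) and no overlap between groups. Of 15 later B-cell genes, 11 were lower, with sums of 1604 to 1781 in NOX-A12 and 1772 to 1952 in untreated mice and mean log2 levels of 6.08 to 6.24 in NOX-A12 and 6.26 to 6.34 in untreated mice, without overlap. Of 19 T-lineage genes, 11 were lower, but their sums were 2720 to 3105 in NOX-A12 and 2203 to 2543 in untreated mice, most of it Cd3d, and their mean log2 levels overlapped, at 5.95 to 6.10 in NOX-A12 and 5.98 to 6.05 in untreated mice. Ptcra, the pre-T-cell receptor chain that marks thymocytes with active recombination, averaged 18.9 in NOX-A12 and 19.6 in untreated marrow, below the median of all values. Of 14 natural killer and innate lymphoid genes, 12 were lower and 0 passed, with sums of 3581 to 4423 in NOX-A12 and 4420 to 4724 in untreated mice and mean log2 levels of 7.12 to 7.31 in NOX-A12 and 7.37 to 7.52 in untreated mice, without overlap. Of 15 lymphoid and plasmacytoid progenitor genes, 9 were lower, with sums of 7423 to 7724 in NOX-A12 and 7018 to 8549 in untreated mice. That list holds Rag1 and Dntt themselves, with Dntt among the lower genes, so it is not independent of the members. Of 24 proliferation genes, 11 were higher and 13 lower, with sums of 71481 to 75709 in NOX-A12 and 68769 to 83998 in untreated mice. Groups did not overlap for 4 of the 21 early B-lineage, 3 of the 15 later B-cell and 3 of the 19 T-lineage genes. They did not overlap for 5 of the 14 natural killer and innate lymphoid, 1 of the 15 progenitor and 1 of the 24 proliferation genes. The share over all probe sets was 9.85%, and these counts were not tested against it. That share is for single probe sets and has no counterpart here for list means. The part of any of these cells in the levels of Rag1, Rag2 or Dntt was not tested.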

How the data were processed

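RNA from whole marrow of 6 mice was hybridised to 1 array each, per the labels' protocols. The authors' deposited values were probe-set intensity values on a linear scale; the sources used here name neither the software nor the normalization. The medians of the 6 arrays spanned 0.0262 on the log2 scale, under a limit of 0.1, so no further scaling was applied. Precision is limited by having 3 arrays a group. Groups came from the sample titles, which number separate mice. Of 45037 probe sets, 34945 had 1 gene symbol in the platform annotation, 9160 had no symbol listed, and the 932 with several were not named. After log2(intensity + 16), limma 3.58.1 in R 4.3.3 was fitted to all 6 arrays without covariates (lmFit, eBayes, two-sided, Benjamini-Hochberg over all probe sets), and single differences and correlations used exact permutation in Python 3.11.15. The fit was tested on simulated data with changes larger than those of any member, so that test does not bear on differences of the members' size. All member probe sets were named, with the 3 list genes of smallest unadjusted p, the 3 genes of most similar pattern to each of Rag1, Rag2 and Dntt, and Igll1, Vpreb1 and Cd79a always; Ms4a1, Ighm, Cd3e, Cd3d, Ptcra, Pax5, Dtx1 and Cd24a were added after their values were seen, to check the tissue. The members, lists and rules were chosen with earlier results of these data known. Alternatives covered normalization, offset, dim probe sets, variance model, array weights, mouse number as a block, choice of probe set, and leaving out each mouse. No probe set was filtered out before fitting. Promoter windows came from RefSeq.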

Additional observations from a re-analysis of the deposited data

How the results depend on the processing

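No member passed limma at 0.05 under any of the alternatives, whose lowest adjusted p for a member was 0.62 (Rag2 without untreated mouse 1). Rag1, Rag2, Dntt and Xrcc5 kept their direction under every alternative run on their brightest probe sets. Leaving out 1 mouse at a time gave log2 differences of -0.080 to 0.069 for Prkdc, -0.052 to 0.080 for Lig4, -0.091 to 0.037 for Nhej1, -0.20 to -0.043 for Xrcc4 and 0.0028 to 0.12 for Xrcc6. The Xrcc6 difference was -0.079 as the mean of its probe sets, and without probe sets of shared suffixes Xrcc4 was 0.0108 and Nhej1 0.0124. Dntt relative to the other early B-lineage genes was -0.26. Under quantile normalization r of Rag1 was -0.0364 with Igll1 and -0.0403 with Vpreb1. At the third Dntt probe set r was 0.94 with Igll1 and 0.96 with Vpreb1, and at the second 0.48 and 0.30. The cause of these turns was not tested. Member probe sets at an unadjusted p under 0.05 numbered 2, and 0 with an offset of 1. Over all probe sets that count was 2240, 1155 without dim probe sets, and 1508 to 3555 without 1 mouse, the highest without untreated mouse 1. Mouse numbers did not pair the groups (r of same-numbered deviations -0.18, 0.09 and 0.04). With the replicate block, which leaves the differences as they are by construction (-0.22 for Xrcc5), 0 members were called and 1 member probe set had an unadjusted p under 0.05, where Xrcc5 had 0.0705. With 3 mice a group, the number of arrays limits what could be detected.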
